A study of Mus musculus with 6 samples.

Results

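The regions described here are the accessible sites of mouse spermatogonia that lie in gene deserts, long stretches of chromosome with no protein-coding gene. Overlapping peaks of 6 ATAC-seq libraries were merged on chromosomes 1 to 19, and a merged region was kept when it lay more than 200 kb from every protein-coding gene. This rule kept 11834 of 155418 autosomal regions, or 7.61%. The rule used position only, not the height of a peak or the library that called it.

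The study asked whether loss of SIRT7, a nuclear deacetylase of the sirtuin family, alters chromatin accessibility in male germ cells. Each library came from 50000 cells of testes taken on postnatal day 5, in 3 WT and 3 S7KO libraries numbered 1, 2 and 4 in both genotypes. S7KO stands for Sirt7-/-, a constitutive knockout carried in every cell of the animal, and the study's methods place both genotypes on the 129S1/Sv background. The study enriched spermatogonia by plating, in which somatic cells attach sooner than germ cells, so the suspensions can hold other testis cells. In such mixed suspensions a site open in few cells and a site weakly open in many cannot be told apart. The replicate numbers are those of the sample titles. A second label gives replicates 1 and 2 of both genotypes the numbers 2 and 3, so the same S7KO and WT libraries share a number with each other under either label. The study describes the libraries of a genotype as independent biological replicates, and the labels do not tie them to individual mice.

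Chromosomes are unevenly filled with genes, and the emptiest stretches often border genes that control development or cell adhesion. Sequence inside such deserts can hold enhancers that act on a distant promoter, genes for long non-coding RNAs (lncRNAs) and microRNAs, and long runs with no known function. ATAC-seq marks sites where the Tn5 transposase can insert into DNA, which in most cells include active promoters, enhancers and sites bound by architectural proteins.

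The whole lists held 105754 to 133695 peaks per library, the shortest from WT replicate 2. The peak lists carry no read totals, so the depth of each library is unknown and an absent peak is a site that did not pass the caller's threshold. Start sites of marker genes were checked for a peak within 3 kb. The lists named 18 markers of spermatogonia, 10 of Sertoli cells, 6 of Leydig cells, 7 of peritubular myoid cells and stroma, 5 of macrophages and 5 of endothelium. Those without an autosomal start in the gene table were not checked. All 13 spermatogonial markers with a start in the table used, among them Ddx4, Dazl, Gfra1, Etv5 and Id4, had such a peak in all 6 libraries. So did 4 of 4 Sertoli cell markers, 3 of 4 Leydig cell markers, 3 of 3 of peritubular myoid cells and stroma, 2 of 2 of endothelium and 1 of 3 of macrophages, while Ptprc and Lyz2, both of macrophages, had none in any library. A peak at a start site therefore did not separate germ cells from somatic cells in these lists, and the part of somatic cells in the desert regions was not tested.

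Although deserts have no protein-coding gene, 15.7% of their regions (1854) overlapped an annotated lncRNA gene, and 200 regions touched the start window of such a gene. The start windows below are the 7 of the best ranked desert regions of this kind, called in all 6 libraries. Each runs from 250 bases before to 50 bases after the annotated start, 5′ to 3′ on the gene's strand, and comes from RefSeq on GRCm38.p6, the assembly known as mm10. Capitals mark 4 letter patterns found on either strand: the GC box, with the letters GGGCGG, the CCAAT box, written as its name, the TATA box as TATAAA and the cyclic AMP response element as TGACGTCA. The window of Gm34332 holds none of them. In the window of Gm31415 a CCAAT and its reverse complement share letters.
Gm26901, chr1:7398047-7398346, minus strand: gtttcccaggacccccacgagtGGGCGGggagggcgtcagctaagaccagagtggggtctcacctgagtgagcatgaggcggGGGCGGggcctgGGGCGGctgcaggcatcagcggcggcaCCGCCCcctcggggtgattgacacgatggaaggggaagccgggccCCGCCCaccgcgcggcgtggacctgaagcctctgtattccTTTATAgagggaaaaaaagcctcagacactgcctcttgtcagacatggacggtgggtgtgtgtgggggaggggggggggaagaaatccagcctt
Gm32810, chr1:112416869-112417168, minus strand: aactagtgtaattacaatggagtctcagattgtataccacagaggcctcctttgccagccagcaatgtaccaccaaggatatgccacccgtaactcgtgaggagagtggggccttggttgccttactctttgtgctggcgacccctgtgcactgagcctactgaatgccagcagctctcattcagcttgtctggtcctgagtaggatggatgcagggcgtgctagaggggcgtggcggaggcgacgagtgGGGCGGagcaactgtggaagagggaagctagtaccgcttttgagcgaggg
Gm33022, chr14:19311640-19311939, minus strand: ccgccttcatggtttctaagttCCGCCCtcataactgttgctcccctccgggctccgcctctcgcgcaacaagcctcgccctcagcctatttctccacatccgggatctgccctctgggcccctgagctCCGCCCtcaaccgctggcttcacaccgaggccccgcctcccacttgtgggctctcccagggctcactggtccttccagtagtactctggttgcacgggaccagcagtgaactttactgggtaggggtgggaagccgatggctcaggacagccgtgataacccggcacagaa
Gm34297, chr10:98537238-98537537, plus strand: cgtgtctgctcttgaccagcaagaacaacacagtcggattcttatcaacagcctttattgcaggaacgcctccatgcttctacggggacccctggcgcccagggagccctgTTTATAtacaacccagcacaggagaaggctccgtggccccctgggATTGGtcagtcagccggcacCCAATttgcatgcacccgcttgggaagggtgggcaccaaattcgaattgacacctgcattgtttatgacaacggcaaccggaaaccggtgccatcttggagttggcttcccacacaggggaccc
Mir100hg, chr9:41474643-41474942, plus strand: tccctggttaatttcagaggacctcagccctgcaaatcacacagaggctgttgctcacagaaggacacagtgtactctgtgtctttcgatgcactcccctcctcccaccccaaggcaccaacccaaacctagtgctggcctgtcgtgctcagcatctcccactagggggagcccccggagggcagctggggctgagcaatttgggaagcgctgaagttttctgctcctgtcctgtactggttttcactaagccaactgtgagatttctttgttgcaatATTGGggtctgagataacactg
Gm34332, chr13:53688382-53688681, plus strand: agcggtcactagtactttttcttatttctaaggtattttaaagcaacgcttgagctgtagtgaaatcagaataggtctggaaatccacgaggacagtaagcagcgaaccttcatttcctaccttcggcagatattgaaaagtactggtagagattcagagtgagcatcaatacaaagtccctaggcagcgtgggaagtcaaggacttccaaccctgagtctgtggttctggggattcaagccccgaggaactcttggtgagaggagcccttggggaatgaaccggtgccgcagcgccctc
Gm31415, chr3:49062189-49062488, plus strand: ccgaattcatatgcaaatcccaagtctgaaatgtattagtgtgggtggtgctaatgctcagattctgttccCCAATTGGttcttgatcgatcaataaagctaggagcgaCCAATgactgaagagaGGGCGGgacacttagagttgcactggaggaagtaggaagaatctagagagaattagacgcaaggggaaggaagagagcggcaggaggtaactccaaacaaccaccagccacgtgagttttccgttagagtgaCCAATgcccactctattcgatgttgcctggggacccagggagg

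Gm26901, an lncRNA gene of the Pcmtd1-Sntg1 desert on chromosome 1, had the window richest in CpG of these, with 18 CpG and 65.7% GC. Its region of 1302 bp lay 224 kb from Pcmtd1. Peaks were placed by rank, their position in percent of the library's whole list ordered by -log10 q, so that a low rank is a strong peak. In the order of replicates 1, 2 and 4, the Gm26901 peak had ranks of 0.299%, 0.164% and 0.0990% in the S7KO lists. Its WT ranks were 0.387%, 0.127% and 0.174%. The ranges of the genotypes overlapped. Gm32810, 551 kb from Dsel, had 11 CpG and ranked between 5.45% and 9.46%. Gm33022, 222 kb from Gm2244, had 16 CpG and ranked between 5.17% and 10.6%. Gm34297, 377 kb from Atp2b1, had 12 CpG and ranked between 8.20% and 11.9%. Gm34332, 216 kb from the homeobox gene Msx2, had 10 CpG and ranked between 8.88% and 17.4%. Gm31415, 680 kb from the protocadherin gene Pcdh18, had 9 CpG and ranked between 13.9% and 17.6%. Mir100hg, the host gene of the microRNAs miR-100, let-7a-2 and miR-125b-1, had 4 CpG in the window above and ranked between 11.0% and 13.9%. Another start window of Mir100hg, also in a region of all 6 libraries, had 15 CpG and ranked between 23.8% and 52.0%.

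A smaller share of lncRNA starts was open in deserts than nearer to genes. Of 1023 lncRNA start windows in deserts, 227 (22.2%) touched a region and 173 (16.9%) touched a region called in all 6 libraries. Of 5724 windows in intergenic sequence 3 to 200 kb from a gene, 1875 (32.8%) touched a region. The median was 5 CpG per window in those of all 6 libraries in deserts, 6 in those of all 6 libraries nearer to genes and 2 in the 796 desert windows with no region. GC boxes stood in 12.1% of the desert windows of all 6 libraries and in 21.1% of such windows nearer to genes. They stood in 2.39% of the desert windows with no region and in 36.0% of all 31396 start windows of the table. CCAAT stood in 35.3%, 35.3%, 42.1% and 37.3% of these sets, in the same order. TATAAA stood in 18.5%, 11.4%, 24.1% and 13.6%, and TGACGTCA in 1.73%, 1.44%, 0.503% and 1.83%. A match to such a short pattern is a description of the letters and was not tied to the binding of a factor.

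The 200 desert regions at an lncRNA start window were wider and more often shared than the other 11634 desert regions. Their median width was 991 bp against 578.5 bp, and 152 of them (76.0%, 95% Wilson interval 69.6% to 81.4%) were called in all 6 libraries against 44.3% of the others. Within single libraries the median width at these starts was 834, 823 and 768 bp in S7KO and 837, 708 and 811 bp in WT. Other desert peaks measured 532, 529 and 511 bp in S7KO and 549, 477 and 511.5 bp in WT, so the starts were wider in each of the 6 libraries. A wider region is more likely to touch a start window. Shared desert regions were also wider, with a median of 889 bp in all 6 libraries and 252 bp in 1. How much of both differences comes from this choice by overlap was not tested. None of the 200 regions was called in all libraries of one genotype and in none of the other. Such patterns were rare among all desert regions (0.642% only in S7KO and 0.127% only in WT), so 200 regions are too few to show a difference. Across whole lncRNA genes, which covered 9.42% of desert sequence, there were 43.0 regions per Mb, and 52.5% of those were called in all 6 libraries.

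MicroRNA genes were also looked at in deserts. Of 44 microRNA hairpins there, 7 overlapped a region and 15 lay within 3 kb of 1. The mature forms below, from RefSeq on GRCm38.p6, are shown because 5 of the 7 belong to the miR-344 family and 4 of these share a seed. The family made up 13 of the 44 hairpins, and the other 8 of its members overlapped no region. The seed, bases 2 to 8 of the mature RNA and the main determinant of its targets, is in capitals.
miR-344b-5p, chr7:61790556-61790578, minus strand: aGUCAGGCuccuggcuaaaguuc
miR-344c-5p, chr7:61837363-61837385, minus strand: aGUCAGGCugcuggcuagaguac
miR-344-5p, chr7:61940073-61940098, minus strand: aGUCAGGCuccuggcuagauuccagg
miR-344g-5p, chr7:61982335-61982355, minus strand: aGUCAGGCuccuggcaggagu
miR-344c-3p, chr7:61837323-61837345, minus strand: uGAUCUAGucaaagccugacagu
miR-344-3p, chr7:61940036-61940058, minus strand: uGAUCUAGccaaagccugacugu
miR-344d-3p, chr7:61685279-61685300, minus strand: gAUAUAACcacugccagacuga
miR-125b-5p, chr9:41581940-41581961, plus strand: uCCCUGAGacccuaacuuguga
miR-802-5p, chr16:93369737-93369758, plus strand: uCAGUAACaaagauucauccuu

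The seed GUCAGGC was common to miR-344b-5p, miR-344c-5p, miR-344-5p and miR-344g-5p, and the seed GAUCUAG to miR-344c-3p and miR-344-3p. Their hairpins lay in the Gm51483-Ndn desert of chromosome 7, whose right border Ndn encodes necdin, an imprinted growth suppressor. That desert held 11 regions, 4 of them called in all 6 libraries. The peak over Mir344-2 was the best ranked of the family, at 33.1%, 29.9% and 29.7% of the S7KO lists and 25.4%, 19.1% and 20.7% of the WT lists. All 3 WT ranks were thus lower than the S7KO ranks. That order, picked out among the values of the 7 hairpins after they were seen, was not tested. Mir344c was called in all 6 libraries (ranks 40.5% to 75.3%), Mir344b in all but WT replicate 2, Mir344d-2 in the 3 S7KO libraries and WT replicate 4, and Mir344g in S7KO replicate 2 and WT replicate 4 only. Mir125b-1, whose mature RNA is related to lin-4 of worms, lay under a region of 2681 bp in the Ubash3b-Gm40514 desert, ranked between 38.2% and 55.1%. Mir802 lay 214 kb from the nearest gene in the Runx1-Setd4 desert, under a region ranked between 23.5% and 53.5%. The let-7 family member Mirlet7c-1 lay 2685 bp from a region called in all 6 libraries, with ranks of 16.8% to 39.9%, and Mir99a of the same desert lay 3435 bp from it.

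Accessible regions thinned out with distance from genes. Desert sequence came to 457 Mb, 19.1% of the 2396 Mb between the first and last region of each autosome, in 725 stretches. It held 25.9 regions per Mb, against 62.2 in intergenic sequence 3 to 200 kb from genes and 64.9 over all autosomal sequence. In bins of distance, the density fell from 69.9 regions per Mb at 10 to 50 kb and 44.4 at 100 to 200 kb to 36.2 at 200 to 300 kb, 28.5 at 300 to 500 kb, 19.3 at 500 to 1000 kb and 15.3 beyond 1000 kb. The median width fell over the 4 desert bins from 627.5 to 590.5, 544 and 503 bp. The share of regions called in all 6 libraries fell with it, from 49.5% (95% Wilson interval 48.0% to 51.0%) at 200 to 300 kb to 35.1% (32.2% to 38.1%) beyond 1000 kb. These intervals cover counting error only, and neighbouring regions are not independent.

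**Figure D1:**
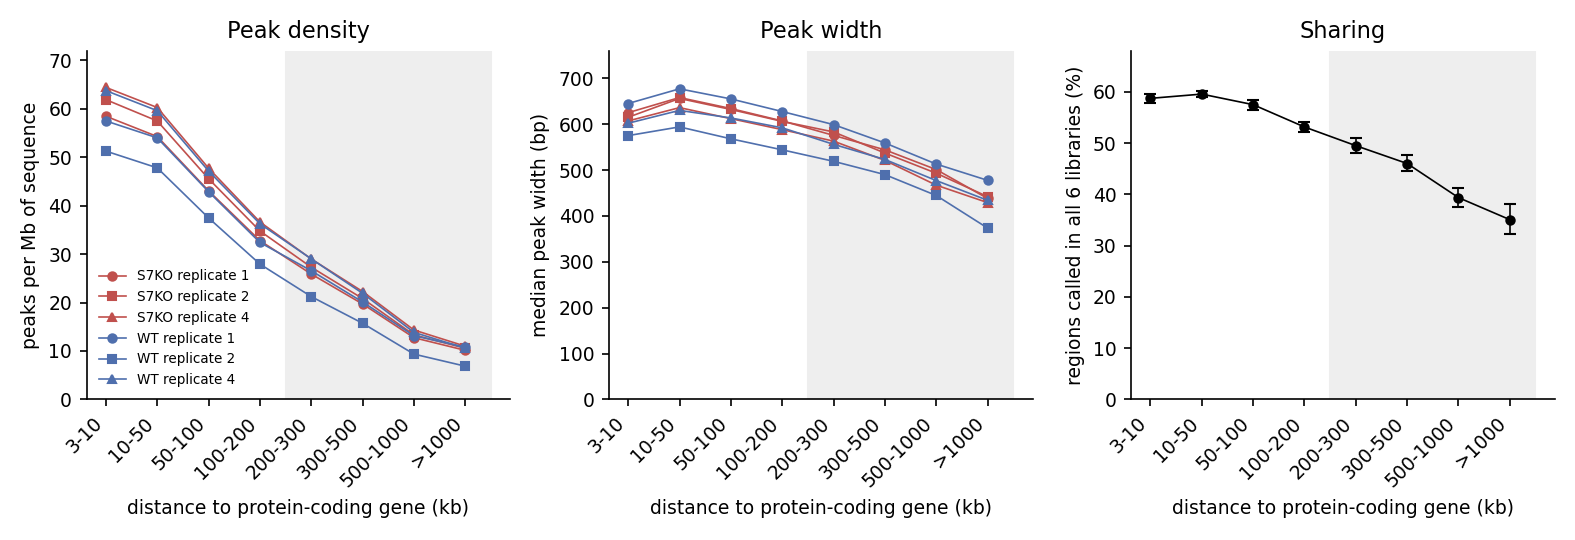
Peaks in bins of distance (kb) from the nearest protein-coding gene, with desert bins shaded. The left panel gives peaks per Mb and the middle panel the median peak width (bp), each with a line per library (red, S7KO; blue, WT), and the right panel gives the percent of merged regions called in all 6 libraries with 95% Wilson intervals. All measures fall over the desert bins, to 6.85 to 11.0 peaks per Mb beyond 1000 kb.

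Desert peaks were sparser, narrower and weaker than nearer intergenic peaks in each of the 6 libraries. There were 17.9, 18.8 and 20.03 desert peaks per Mb in S7KO and 18.4, 14.0 and 19.7 in WT, against 47.7, 50.6 and 53.0 nearer peaks per Mb in S7KO and 47.3, 41.7 and 52.4 in WT. The values of the sets did not overlap in any library. The mean was 18.1 ± 2.19 (SD, n = 6) in deserts and 48.8 ± 4.17 nearer to genes (exact sign-flip test over the libraries, two-sided, p = 0.03125, adjusted p = 0.03125). Desert peaks had a median width of 522.5 ± 25.4 bp (mean and SD over 6 libraries), and nearer intergenic peaks 623 ± 27.0 bp, with the same p in the exact test. Their median rank was 64.2 ± 0.590% against 51.8 ± 0.671%, and their median fold enrichment was 3.18 to 3.54 against 3.45 to 3.74. The share of desert peaks in regions called in all 6 libraries was 65.6 ± 9.42%, and that of nearer peaks 75.6 ± 7.01%. All 4 measures gave p = 0.03125 in the exact test, the smallest p that 6 libraries allow, and the adjusted value over the 4 was the same. With 5 libraries the smallest p is 0.0625, so no measure can pass when a library is left out. Deserts held few of the strongest peaks. Each library had 3 desert peaks among its 1050 to 1329 autosomal peaks in the best 1%, and deserts made up 0.896% to 1.25% of the best 10%.

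The 3 strongest desert sites were the same in all libraries. The first was a region of 450 bp in the Pex2-1700008P02Rik desert (chr3:5860375-5860824, mm10), 282 kb from Pex2, a peroxisome biogenesis gene. Its fold enrichment was 17.5, 18.2 and 19.6 in the S7KO libraries and 18.5, 17.7 and 18.8 in the WT libraries, in the order of replicates 1, 2 and 4. This was the highest fold enrichment of any autosomal peak in 5 of 6 libraries, all but WT replicate 1. The nearest annotated lncRNA gene, Gm46796, lay 246 kb away. No list of mm10 regions that attract excess signal was used here, and whether this is such a region was not tested. The second site was the Gm26901 start described above, and the third was a region of 956 bp in the Eipr1-Myt1l desert, 236 kb from Myt1l, a neuronal transcription factor gene, with ranks of 0.330% to 0.596%. A region of 999 bp in the 4930519L02Rik-Lmo4 desert, 273 kb from Lmo4, ranked between 1.04% and 2.79%.

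Widths ran from narrow to a few kb. The median was 583.5 bp, with quartiles of 357 and 912 bp, against a median of 700 bp in nearer intergenic regions and 717 bp over all autosomal regions. The widest desert region, 4298 bp in the Arglu1-Fam155a desert of chromosome 8, ranked only between 31.2% and 52.6%. The next, 3874 bp in the Tbx18-Nt5e desert, 3841 bp in the Thap1-Zfp703 desert, 3711 bp in the Nphp4-Ajap1 desert and 3665 bp in the Slc30a10-Lyplal1 desert, were also called in all 6 libraries, with ranks of 26.9% to 83.2%. The region farthest from any protein-coding gene lay 2.24 Mb from Pcdh9, was 824 bp wide and was called in all 6 libraries with ranks of 56.5% to 83.0%. A stronger site 2.23 Mb from Pcdh20 in the same desert ranked between 20.8% and 35.4%. At the limit of the rule, the members nearest to it lay 200003, 200008 and 200020 bp from Tle4, A430005L14Rik and Tle3, and the regions just outside lay 199953, 199962 and 199971 bp from Ccdc54, Pkhd1 and Col12a1.

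Deserts differed widely in how many regions they held. Of the 725, 666 held at least 1 region, with a median of 13, and the 59 with none came to 4.16 Mb, the longest being 0.323 Mb. Names below give the flanking protein-coding genes. Pcdh20-Pcdh9 on chromosome 14, between protocadherin genes, had the most, 98 regions in 4.14 Mb, of which 33 were called in all 6 libraries. Zeb2-Acvr2a on chromosome 2, between a zinc finger repressor and an activin receptor, held 95, of which 44 were called in all 6. Slc10a2-Efnb2 on chromosome 8, the latter an ephrin ligand, held 92, and Olfm4-Pcdh17 on chromosome 14 held 86. Celf4-Pik3c3 held 83, Adgrl2-Adgrl4, between adhesion G protein-coupled receptors of the latrophilin group, 81, and Ncam2-Mrpl39 and Nmbr-Cited2 73 each. Slitrk5-Gpc5 held 71 and Nudt12-Efna5 69. Those 10 deserts held 821 regions, 6.94% of the members, in 7.04% of desert sequence. They held 20.2 to 39.5 regions per Mb, beside 25.9 over all desert sequence. Each was above the median of 18.7 in deserts of at least 1 Mb, which follows in part from their choice by number of regions.

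**Figure D2:**
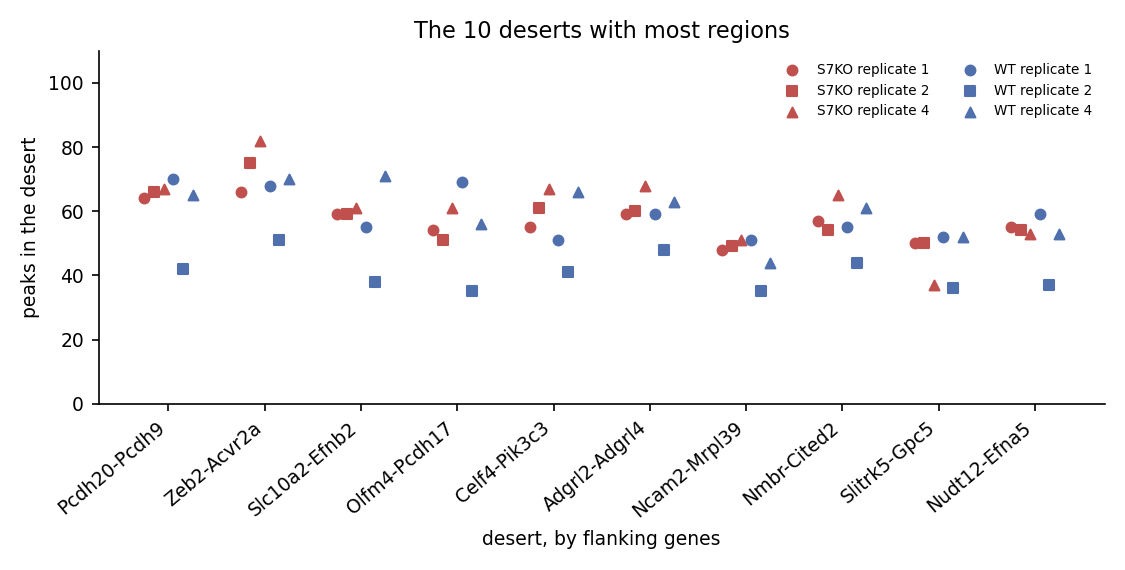
Peaks per library in the 10 deserts with the most merged regions, named by their flanking genes (red, S7KO; blue, WT; the symbol gives the replicate number). WT replicate 2 is the lowest library in all 10 deserts, with 35 to 51 peaks.

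Per Mb, the order was another. Among the 141 deserts of at least 1 Mb, the median was 18.7 regions per Mb, and the highest was 52.7 in Sall3-Galr1 on chromosome 18, beside the developmental zinc finger gene Sall3. Gm44812-Mctp2 had 51.2, Tmem182-Pou3f3, beside a POU-domain transcription factor gene, 45.9, Adamts5-N6amt1 43.7 and Myc-Gsdmc, beside the Myc proto-oncogene, 42.6. Between 50.8% and 60.6% of the regions of these 5 were called in all 6 libraries. Some sparse deserts held antigen receptor segments, which are not annotated as protein-coding genes. Adam6a-Zfp386 on chromosome 12 held 152 such segments and 5.71 regions per Mb. It also had the longest stretch of desert without a region, 1157 kb. A further 123 segments stood in Gm36448-Dad1, with 11.6 regions per Mb. The 421 receptor segments in deserts covered 0.0410% of desert sequence, and 6 desert regions (0.0507%) overlapped any of them. Any overlap counted, however small, and the segments are short, so this count is not a density. Sparse deserts with no receptor segment included Hnf4g-Zfhx4 (6.04 regions per Mb), Ankrd7-Kcnd2 (7.75) and Cntnap5b-Cdh20 (8.51). By chromosome the density ran from 16.9 regions per Mb on chromosome 6 to 38.3 on chromosome 13.

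**Figure D3:**
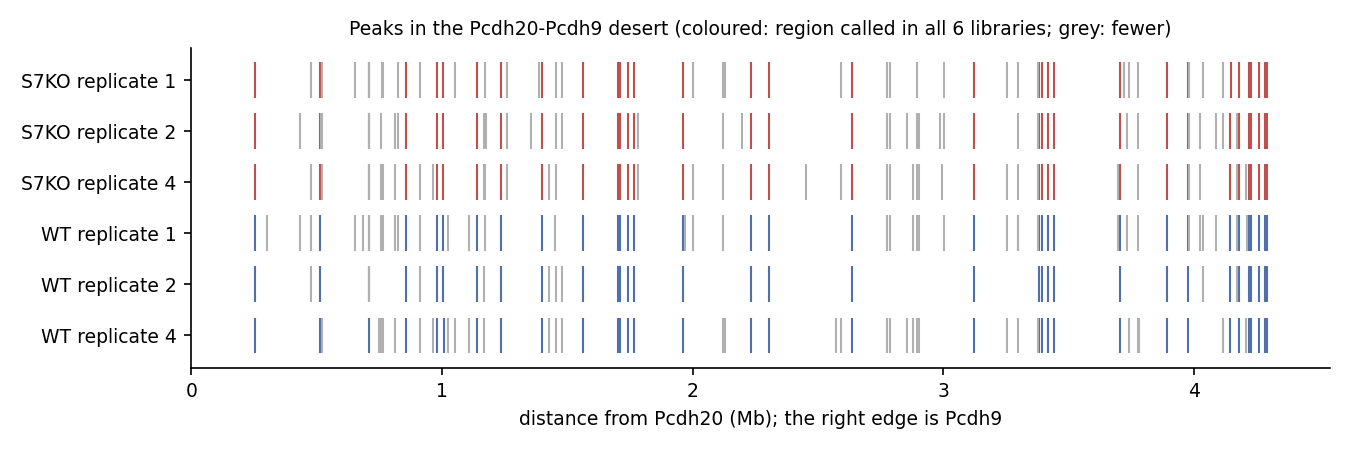
Positions of the peaks of each library in the Pcdh20-Pcdh9 desert, as distance (Mb) from the end of Pcdh20, with Pcdh9 at the right edge. Coloured lines mark peaks in regions called in all 6 libraries and grey lines other peaks, so the 33 shared regions line up over the libraries, among 42 peaks in WT replicate 2 and 64 to 70 in the others.

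The genes that border deserts included many adhesion and developmental genes. They were counted by symbol families, so a list can hold a member outside its class. Deserts with a region were flanked by 1170 of 20560 autosomal protein-coding genes, or 5.69%. Of 38 symbols of synaptic adhesion families, 23 (60.5%) flanked such a desert, among them Slitrk5 (83 regions in its deserts), Slitrk1 (72), Tenm3 (65) and Cntnap5a (64). Of 223 symbols of developmental transcription factor families 63 (28.3%) did, led by Zeb2 (95), Pou3f3 (66), Bcl11a (64) and Gata3 (61). Cadherin and protocadherin genes counted 19 of 95, with Pcdh9 (134), Pcdh17 (124) and Pcdh7 (120). Ion channel and neurotransmitter receptor genes counted 31 of 167 (18.6%), led by Grik2 (57), and symbols of the growth factor families 10 of 76 (13.2%), led by Fgf9 (41) and Bmp4 (29). The last include Fgfr2, a receptor, and Bmper, which binds bone morphogenetic proteins. The transcription factor symbols include Lmo7, a LIM domain protein of cell junctions, and the adhesion symbols include Fstl5, which encodes a secreted follistatin-like protein. Olfactory and vomeronasal receptor genes, which stand in dense clusters, counted 1 of 1454. These shares describe where deserts are and not what the regions regulate, and no test was run on them.

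Of 28 genes that regulate spermatogonia, 4 (14.3%) bordered a desert with regions, beside 5.69% of all autosomal protein-coding genes. All 4 also stand in the list of developmental transcription factor families, of which 28.3% bordered such a desert. Id4, which marks and maintains spermatogonial stem cells, bordered Rnf144b-Id4 with 35 regions in 0.613 Mb, of which 27 (77.1%) were called in all 6 libraries, beside 44.9% of all desert regions. That desert had 32, 33 and 34 peaks in the S7KO libraries and 33, 29 and 33 in the WT libraries, in the same order. Rragc-Pou3f1, beside the POU-domain factor gene Pou3f1, held 30 regions in 0.321 Mb, of which 23 (76.7%) were called in all 6. Sall1-Tox3 held 33 regions, 21 (63.6%) of them in all 6, and Foxo1-Cog6, beside a forkhead factor gene of the insulin pathway, 17, of which 10 (58.8%) were. The numbers of peaks in the genotypes overlapped in the Rnf144b-Id4 desert. High shares were not particular to these deserts. Short deserts beside none of the 28 genes had 70.8% in Mn1-Cryba4 (0.389 Mb) and 64.0% in Zfp516-Tshz1 (0.606 Mb), but 40.9% in Rps24-Zmiz1 (0.561 Mb). Desert regions 200 to 300 kb from a gene had 49.5%. Whether the length of a desert accounts for its share was not tested.

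Sharing between libraries was lower in deserts than elsewhere. Of the 11834 regions, 2133 were called in 1 library, 1191 in 2, 1034 in 3, 923 in 4, 1244 in 5 and 5309 in 6. The last is 44.9% (95% Wilson interval 44.0% to 45.8%), against 57.3% of all autosomal regions and 57.9% of nearer intergenic regions. The regions called in a single library had a median width of 252 bp and those called in all 6 one of 889 bp, against 253 and 983 bp in nearer intergenic regions. WT replicate 2 called 53.4% of the desert regions, and the others 68.6% to 76.9%. Of the 1244 regions that 5 libraries called, 805 (64.7%) were missing in WT replicate 2 alone. Without that library 52.0% of desert regions were called in all 5 that remained, beside 62.5% of all autosomal regions. Of the desert regions of a library, 79.1% to 88.7% were also called in another library of the same genotype within S7KO. Leaving WT replicate 2 out, the range was 79.5% to 85.2% within WT and 78.5% to 87.4% between the genotypes.

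**Figure D4:**
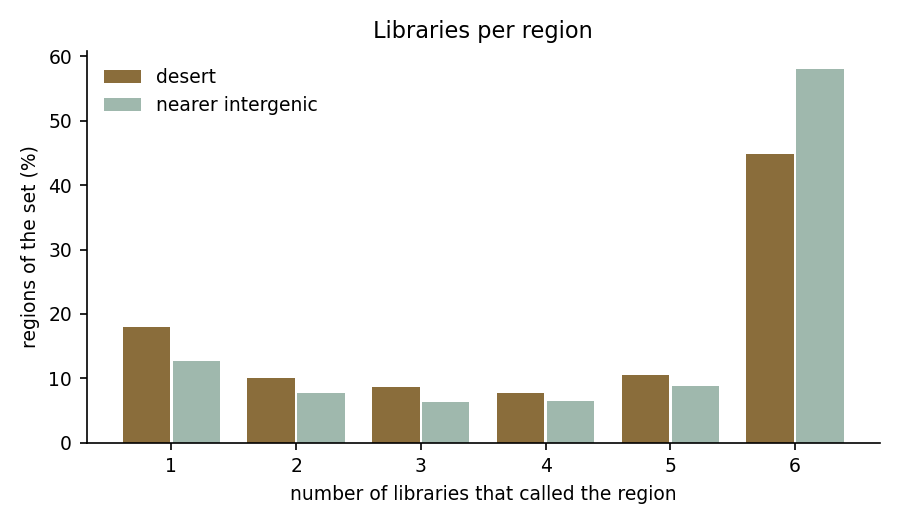
Percent of desert regions (brown) and of nearer intergenic regions (green) called in 1 to 6 of the 6 libraries. Desert regions have the smaller share in all 6 libraries, 44.9% against 57.9%, and the larger share in each smaller number.

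Loss of SIRT7 was compared over libraries. S7KO replicates 1, 2 and 4 had 8164, 8590 and 9157 desert peaks, and WT replicates 1, 2 and 4 had 8399, 6390 and 9016. WT replicate 2 was the lowest, and the other values of WT lay within the S7KO range. The means were 8637 ± 498 (SD, n = 3) and 7935 ± 1373 (exact permutation test, two-sided, p = 0.6, adjusted p = 1), and without WT replicate 2 the difference of 702 became -70.5. Desert peaks made up 6.95%, 6.85% and 7.01% of autosomal peaks in S7KO and 7.21%, 6.16% and 6.88% in WT. The means were 6.94 ± 0.0832% and 6.75 ± 0.538% (exact permutation test, p = 0.8, adjusted p = 1), and without WT replicate 2 the difference of 0.188 percentage points became -0.109. The median width was 536, 536 and 514 bp in S7KO and 553, 480 and 516 bp in WT (exact permutation test, p = 0.7, adjusted p = 1). The median rank was 63.6%, 64.0% and 64.9% in S7KO and 63.6%, 64.5% and 64.8% in WT (exact permutation test, p = 1, adjusted p = 1). The genotypes overlapped in all 4 measures. With 3 libraries against 3 the exact test cannot give a p below 0.1, so no difference could have passed the threshold.

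**Figure D5:**
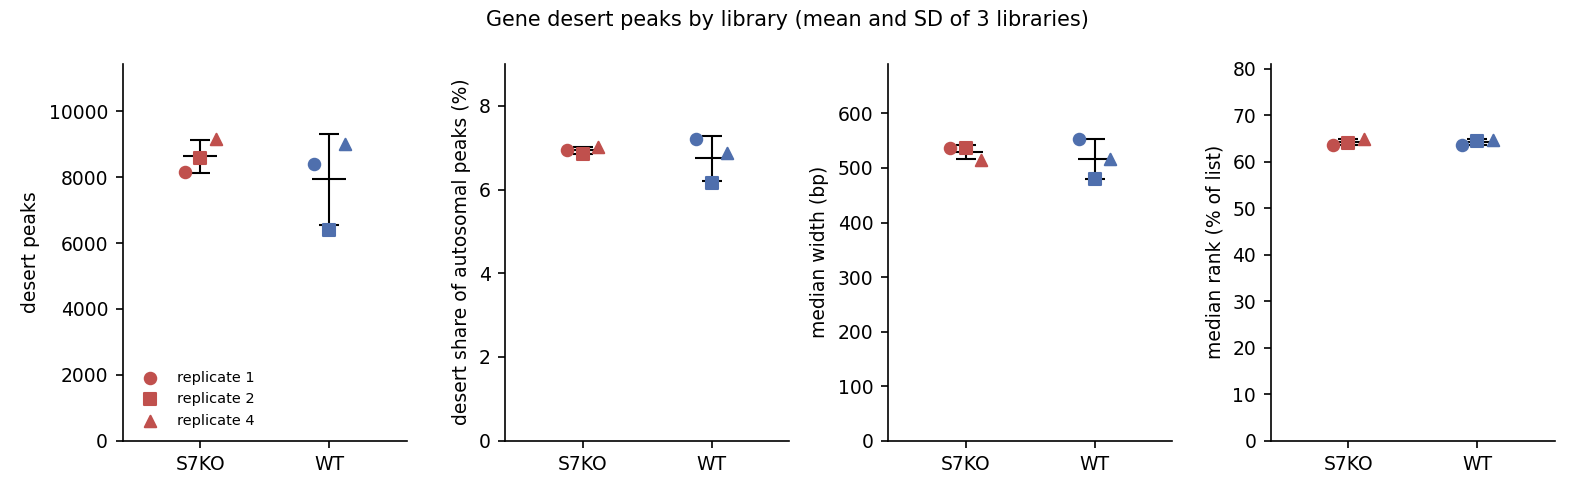
Desert peaks per library, their percent of autosomal peaks, their median width (bp) and their median rank (percent of the list), in S7KO (red) and WT (blue). Points are libraries, and bars are the mean and SD of 3 libraries. The genotypes overlap in each panel, and WT replicate 2 is the lowest in number, share and width.

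Few desert regions were split cleanly by genotype. There were 76 called in all 3 S7KO libraries and no WT library (0.642% of desert regions, beside 0.418% of all autosomal regions), and 15 called in all 3 WT libraries and no S7KO library (0.127%, beside 0.0746%). The 76 were scattered over 69 deserts and 19 chromosomes, with at most 2 in a desert, and the 15 over 15 deserts. They were weak calls, with a median of the worst rank over their 3 libraries of 94.7% and 93.7%, near the 93.0% of the other 943 desert regions called in 3 libraries. The counts depended on the libraries kept. Leaving out S7KO replicate 1, 2 or 4 gave 186, 157 and 154 S7KO-only regions, and leaving out WT replicate 1, 2 or 4 gave 220, 93 and 204. For WT-only regions the counts were 28, 31 and 36 and then 37, 87 and 35. These were 0.242%, 0.269% and 0.318%, then 0.322%, 0.740% and 0.311% of desert regions. Over all autosomal regions the shares were 0.153%, 0.219% and 0.281%, then 0.316%, 0.503% and 0.168%. Of these, only leaving out WT replicate 4 put the S7KO-only share of desert regions, 1.81%, below that of all autosomal regions, 1.88%. With lists reduced to the same number of peaks the counts were 33 and 25 (0.349% and 0.264%, beside 0.237% and 0.202% of all autosomal regions).

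The best ranked of the S7KO-only regions lay in the Lmo7-Kctd12 desert of chromosome 14, 302 kb from Kctd12, which encodes an auxiliary subunit of the GABA-B receptor. Its peaks had fold enrichments of 3.61, 3.39 and 3.31 in the S7KO libraries, with ranks of 60.0%, 58.6% and 64.7%. The next lay in the Adamts16-Irx1 desert, inside the lncRNA gene 1700112M02Rik and 428 kb from the homeobox gene Irx1 (ranks 52.5% to 66.5%). Others lay in Slc4a3-Epha4, 586 kb from Slc4a3 (61.4% to 76.9%), in Serpinb8-Cdh7, 761 kb from the cadherin gene Cdh7 (57.7% to 77.0%), and in Bcl11a-Fancl, 544 kb from Fancl (55.7% to 79.4%). The best ranked WT-only region lay in Chrm3-Ryr2, 232 kb from the ryanodine receptor gene Ryr2, with ranks of 81.4%, 79.9% and 81.1% in WT replicates 1, 2 and 4. It was followed by regions in Serpinb8-Cdh7, 650 kb from Serpinb8 (77.1% to 85.2%), and Itga1-Isl1, 510 kb from Isl1 (45.4% to 88.5%). All of these sat in the weaker part of their lists, apart from the Itga1-Isl1 peak of WT replicate 2 at 45.4%.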

How the data were processed

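ATAC-seq was deposited as 6 lists of broad peaks, 1 per library, with coordinates on mm10. Per the study's methods, the authors aligned reads with Bowtie2 2.4.4.1, kept uniquely mapped, non-duplicate reads, shifted Tn5 insertions, filtered fragments by size and called broad peaks with MACS2 2.2.5 in each library. The fragment sizes behind these lists are described in more than 1 way and are not settled here. In the deposited lists each peak has a score, a fold enrichment (a ratio over the local background) and -log10 p- and q-values. Sequence where reads do not map uniquely cannot yield peaks and was not subtracted from densities.

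Overlapping peaks were merged (Python 3.11.15, pandas 2.3.3, numpy 2.4.6), and distance was measured to 20560 protein-coding genes of RefSeq GRCm38.p6; 105 genes placed below 3 Mb, where no library had a peak, were left out as misplaced. A desert is a stretch between neighbouring genes with sequence beyond 200 kb. Nearer intergenic regions lay 3 to 200 kb from a gene. Genotypes were compared by an exact permutation test over 20 assignments of libraries and deserts with nearer intergenic peaks by an exact sign-flip test over 6 libraries, both two-sided, with Benjamini-Hochberg adjustment over the 4 measures of each family. The scripts were tested on simulated data. Genes and regions were named by fixed rules of order (most regions, longest, highest and lowest density, widest, farthest, best rank), and lists of flanking genes by symbol. The members and lists were chosen with earlier results of these data known. Read depth is unknown, so intervals cover counting of regions only. Some of the regions and deserts that these rules chose are not reported here.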

Additional observations from a re-analysis of the deposited data

How the results depend on the processing

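The direction of the 4 desert against nearer intergenic differences held under all alternatives run. They lost the threshold only where libraries were removed, since fewer libraries cannot reach it. Leaving out 1 library in turn, density differed by -31.3 to -30.2 peaks per Mb, width by -102 to -100.2 bp, rank by 12.3 to 12.7 and the share of peaks in regions of all libraries by -9.78 to -8.29 percentage points. With replicates 1 and 4 only, these were -31.2, -102.5, 12.7 and -7.71 (p = 0.125 in the exact test, the smallest possible). The genotype differences had no stable sign. For number they were -53.3 with equal lists and -47.5 with replicates 1 and 4 only, and for share -0.0514 and -0.0642. For width replicates 1 and 4 only gave -9.5 bp. For rank the difference was 0.0397 with equal lists, where ranks were taken again within the peaks kept. On ranks in the whole lists it was 0.0869 with replicates 1 and 4 only and 0.306 when lncRNA genes also counted as genes. Leaving out 1 library gave -70.5 to 1242.5 for number, -0.109 to 0.417 for share, -5.83 to 30.7 for width and -0.492 to 0.150 for rank.

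S7KO-only regions counted 27 at a -log10 q of at least 3, or 0.303% of desert regions beside 0.296% of all autosomal regions. They counted 33 with equal lists and 185 with replicates 1 and 4 only, the latter 1.62% beside 1.21%. At limits of 100 and 500 kb they counted 119 and 23 (0.577% and 0.633%, beside 0.418%), and with lncRNA genes added 25 (0.668%, beside 0.418%). With 1 library left out they counted 93 to 220 (0.791% to 1.91%, beside 0.591% to 1.88%). WT-only regions counted 6 at the stricter q (0.0674%, beside 0.0498%), 25 with equal lists and 164 with replicates 1 and 4 only (1.44%, beside 1.02%). They counted 6 at 500 kb (0.165%, beside 0.0746%) and 24 when peaks had to cover 50% of the region (0.203%, beside 0.107%). With 1 library left out they counted 28 to 87 (0.242% to 0.740%, beside 0.153% to 0.503%). The share called in all libraries was 39.6% at the stricter q, beside 55.6% of all autosomal regions. With replicates 1 and 4 only it was 55.2%, beside 65.0%. It was 48.4% and 38.2% at 100 and 500 kb and 36.7% with lncRNA genes added, each beside 57.3%. Under 50% cover it was 30.1%, beside 42.3%. With 1 library left out it was 46.7% to 52.0%, beside 59.0% to 62.5%. A replicate block on the shared numbers left the differences at 702 peaks (exact sign-flip test, p = 0.75), 0.188 percentage points, 12.3 bp and -0.123. Deviations of same-numbered libraries over desert regions correlated at 0.0887, 0.0120 and 0.108 for replicates 1, 2 and 4, and those of differently numbered libraries at -0.128 to 0.0459. Replicates 1 and 4 each correlated best with their own number and replicate 2 did not, so pairing by number was not taken as established. The cause of these changes was not tested, except that fewer libraries make each class easier to enter. No read counts stand behind the lists, so a weak site and a missed site look alike.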
